A study of Mus musculus with 4 samples.

Results

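Interferon-responding cells made up 4694 of the 13612 kept cells of the 2 libraries of mouse mesenchymal progenitors treated with 5-Azacitidine (5-Aza), in a single-cell RNA sequencing experiment with 22049 kept cells in 4 libraries. A cell was counted as interferon-responding where it held a unique molecular identifier (UMI, the tag of 1 counted RNA molecule) of at least 4 of the 9 genes Irf7, Oasl2, Usp18, Ifi44, Isg15, Ifit1, Ifit3, Rtp4 and Xaf1, called the rule genes below. They were compared, within each library, with the kept cells that held a UMI of at most 1 rule gene, called comparison cells. The cells were chosen by the measured values of the rule genes, so the levels of those genes are given as a description only.

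The cells were C3H10T1/2, a mouse line of mesenchymal progenitors that can form fat, bone, cartilage and muscle cells. All 4 libraries came from cells transduced with a lentivirus that carried a tagged human histone H3.1 behind an EF1 promoter and selected with puromycin at 2 µg/ml, so that the endogenous H3 genes were still present in every group. The transgene was wild type (H3WT) or carried cysteine in place of arginine at residue 26 (H3R26C), and each line received vehicle (DMSO) or 5-Aza, an inhibitor of DNA methyltransferases, at 3 µM for 24 h with collection on day 28. Each of the 4 conditions was 1 library, and the methods give no collection day for cells with DMSO, so treatment and time in culture cannot be told apart. Without replicate libraries no test was made, and the 95% intervals given here cover counting error only.

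Type I interferons bind the receptor of IFNAR1 and IFNAR2, whose kinases JAK1 and TYK2 phosphorylate transcription factors such as STAT2. STAT2 joins IRF9 in a complex that enters the nucleus and binds interferon-stimulated response elements in promoters, which switches on a large set of genes that block viral replication, present antigen or feed back on the pathway. In several cancer cell lines, inhibitors of DNA methyltransferases are known to switch on this programme through the sensing of double-stranded RNA from endogenous retroviruses, a route that was not tested in these cells.

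Letters that make up such an element were looked for in promoters. The share of genes that held them was larger in each group of interferon genes than over all genes. Still, fewer of the interferon-list genes held them than did not. The letters GAAANNGAAA, or TTTCNNTTTC on the opposite strand, were searched in the 250 bases before to 50 bases after each start site in RefSeq promoters of GRCm38.p6, and 3.99% of the 27025 genes with a promoter held them. Among the rule genes with a promoter entry, 3 of 7 held the letters (42.9%). Of the other interferon genes that were at least 2-fold higher in responding cells of both libraries, 7 of 11 did (63.6%), and of the other interferon-list genes tested, 20 of 73 did (27.4%). The windows of 4 genes are shown because Isg15, Ifit1 and Ifit3 are rule genes and Bst2 was the most abundant of the other genes 2-fold higher in both libraries. Each window has 60 bases and lies upstream of the start site on the strand of its gene, with the matching letters in capitals.
Isg15 (chr4:156200856-156200915, minus strand): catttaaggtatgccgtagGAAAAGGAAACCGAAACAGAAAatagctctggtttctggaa
Ifit1 (chr19:34640770-34640829, plus strand): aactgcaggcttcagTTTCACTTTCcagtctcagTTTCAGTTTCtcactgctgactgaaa
Ifit3 (chr19:34583365-34583424, plus strand): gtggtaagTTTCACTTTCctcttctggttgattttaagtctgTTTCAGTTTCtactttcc
Bst2 (chr8:71537565-71537624, minus strand): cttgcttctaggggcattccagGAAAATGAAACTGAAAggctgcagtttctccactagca
The Isg15 window held 3 overlapping matches, the first starting 78 and the last 66 bases before the start site, and those of Ifit1, Ifit3 and Bst2 held 2 each. A match describes the letters of the promoter and does not show that a factor bound there.

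Responding cells made up a larger share of the H3R26C than of the H3WT library after 5-Aza. Responding cells were 640 of 5993 H3WT 5-Aza cells (10.7%, 95% exact binomial interval 9.91% to 11.5%) and 4054 of 7619 H3R26C 5-Aza cells (53.2%, interval 52.1% to 54.3%). With DMSO, the same criterion was met by 113 of 3710 H3WT cells (3.05%) and by 275 of 4727 H3R26C cells (5.82%). From the lowest to the highest share, the 4 libraries were H3WT DMSO, H3R26C DMSO, H3WT 5-Aza and H3R26C 5-Aza. Whether conditions differ beyond the spread between cultures could not be tested with 1 library each. No cell type in the files is known to lack the rule genes, so the share of cells that free RNA brings to the criterion was not measured.

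Because a deeper cell is more likely to show a UMI of any gene, each cell was also thinned at random to 5000 UMIs before the criterion was applied. Responding cells were then 2.65% of the H3WT 5-Aza and 24.7% of the H3R26C 5-Aza cells, against 0.566% and 0.783% with DMSO, where the intervals of the DMSO libraries overlapped. Kept cells of the DMSO libraries were the deeper ones, with a median of 22420 UMIs in H3WT and 16598 in H3R26C, against 13149 and 13123 with 5-Aza. Within the 5-Aza libraries, responding cells had a median of 15352 UMIs in H3WT and 14326 in H3R26C, and comparison cells 12360 and 11073. The mitochondrial share of the UMIs was close between them, with medians of 2.65% and 2.95% in H3WT and of 2.53% and 2.57% in H3R26C. The plot of rule genes per cell shows the whole distribution in each library.

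**Figure D1:**
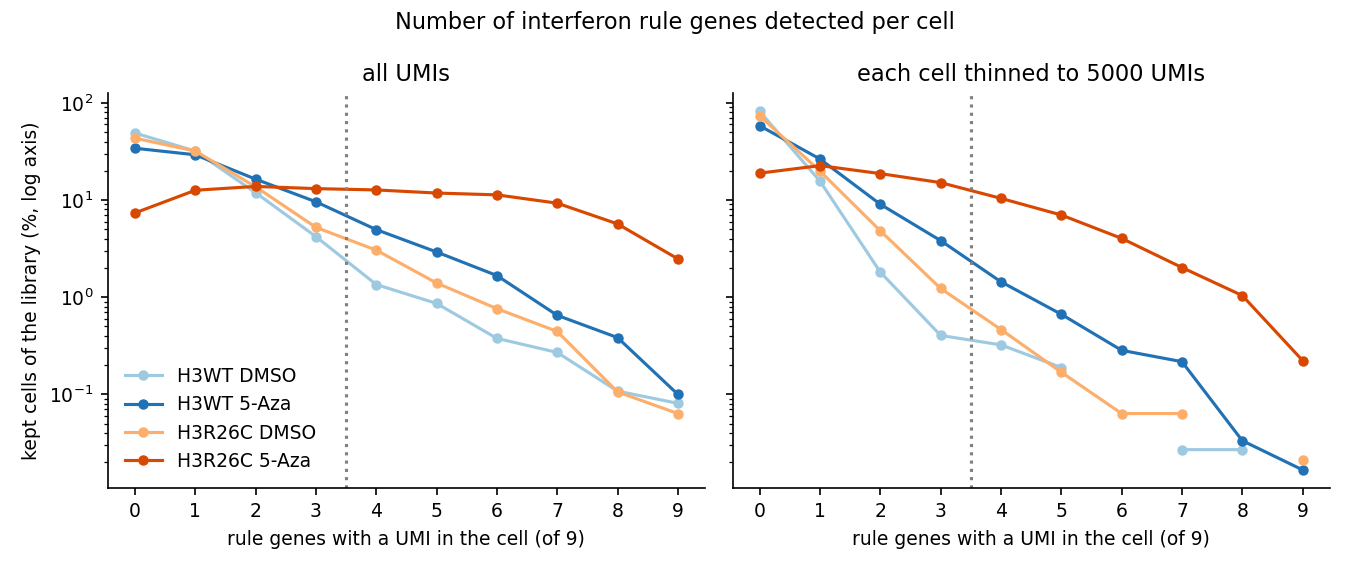
Share of the kept cells of each library (vertical, %, log axis) by the number of the 9 rule genes with a UMI in the cell (horizontal), from all UMIs (left) and after thinning each cell to 5000 UMIs (right); a point is left out where no cell had that number. The dotted line marks the criterion of at least 4 rule genes, and the H3R26C 5-Aza library lies above the other 3 libraries from 4 rule genes on in both panels.

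The number of rule genes was continuous across the criterion, without a gap at its threshold. In H3WT 5-Aza, 297 cells had 4 rule genes and 575 had 3, with a summed level of the rule genes of 462 and 315 CPM, a gene's UMIs per 1000000 UMIs of the same cells. In H3R26C 5-Aza, 965 cells had 4 and 998 had 3, with 619 and 414 CPM. All 9 rule genes were seen in 6 H3WT and 189 H3R26C cells, and the median responding cell had 5 and 6. Responding cells held the rule genes at 791 CPM in sum in H3WT and at 1413 CPM in H3R26C. Of the kept cell barcodes, 58 occurred in both 5-Aza libraries, and 3 of these belonged to responding cells in both.

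Isg15, a ubiquitin-like protein that is attached to other proteins during the response, was the most abundant rule gene. It was at 243 CPM in responding and 18.2 CPM in comparison cells of H3WT 5-Aza, and at 556 and 40.1 CPM in H3R26C 5-Aza. A UMI of it was found in 87% and 95% of the responding cells. The RNA-binding inhibitors of translation Ifit1 and Ifit3 followed, with 133 and 143 CPM in H3WT and 172 and 195 CPM in the responding cells of H3R26C. Reads of Ifit3 may be split with its near-identical neighbour Ifit3b.

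The remaining rule genes include regulators of the response itself. Irf7, the transcription factor that amplifies interferon production, was at 28.2 CPM in responding cells of H3WT and 77.2 CPM in those of H3R26C, and at 1.49 and 2.83 CPM in comparison cells. Usp18, the protease that removes ISG15 and dampens receptor signalling, was at 32.1 and 52.4 CPM in responding cells. Rtp4 was at 102 and 158 CPM, Xaf1, an antagonist of an inhibitor of apoptosis, at 78.1 and 118 CPM, Oasl2 at 26.1 and 61.9 CPM, and Ifi44 at 6.25 and 21.6 CPM. All 9 rule genes were at a higher level in the responding cells of H3R26C than in those of H3WT.

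Other genes were compared between responding and comparison cells as log2 ratios of summed CPM with 1 CPM added, among genes with at least 20 CPM in either group of cells in each library, and a gene was called 2-fold higher or lower at a log2 ratio of 1 in size. Of 6139 genes, 24 were 2-fold higher in both libraries (0.391%) and 42 were 2-fold lower in both (0.684%). The 24 were 8 rule genes, 15 of the 99 other genes of the interferon lists and 1 of 6032 genes outside these lists. All 42 lower genes lay outside the interferon lists. A gene that reached 20 CPM through the responding cells alone had to have a ratio above 0, and one that did so through the comparison cells alone a ratio below 0. Of the 287 interferon-list genes in the files outside the rule, 72 also reached 20 CPM in the comparison cells of both libraries, and 6 of these were 2-fold higher in both. List medians below are over the genes tested in both libraries unless another number is given. Both libraries contained muscle-like cells with few responders, described below, and without the muscle-like and adipocyte-like clusters 22 of 6102 genes were 2-fold higher in both libraries (0.361%) and none was 2-fold lower (0%). In H3R26C 5-Aza alone, without these clusters, 24 genes outside the lists were 2-fold higher and 40 lower, and in H3WT 5-Aza alone 2 and 2. Over all kept cells, 87 of 6655 genes were 2-fold higher in H3R26C 5-Aza (1.31%).

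**Figure D2:**
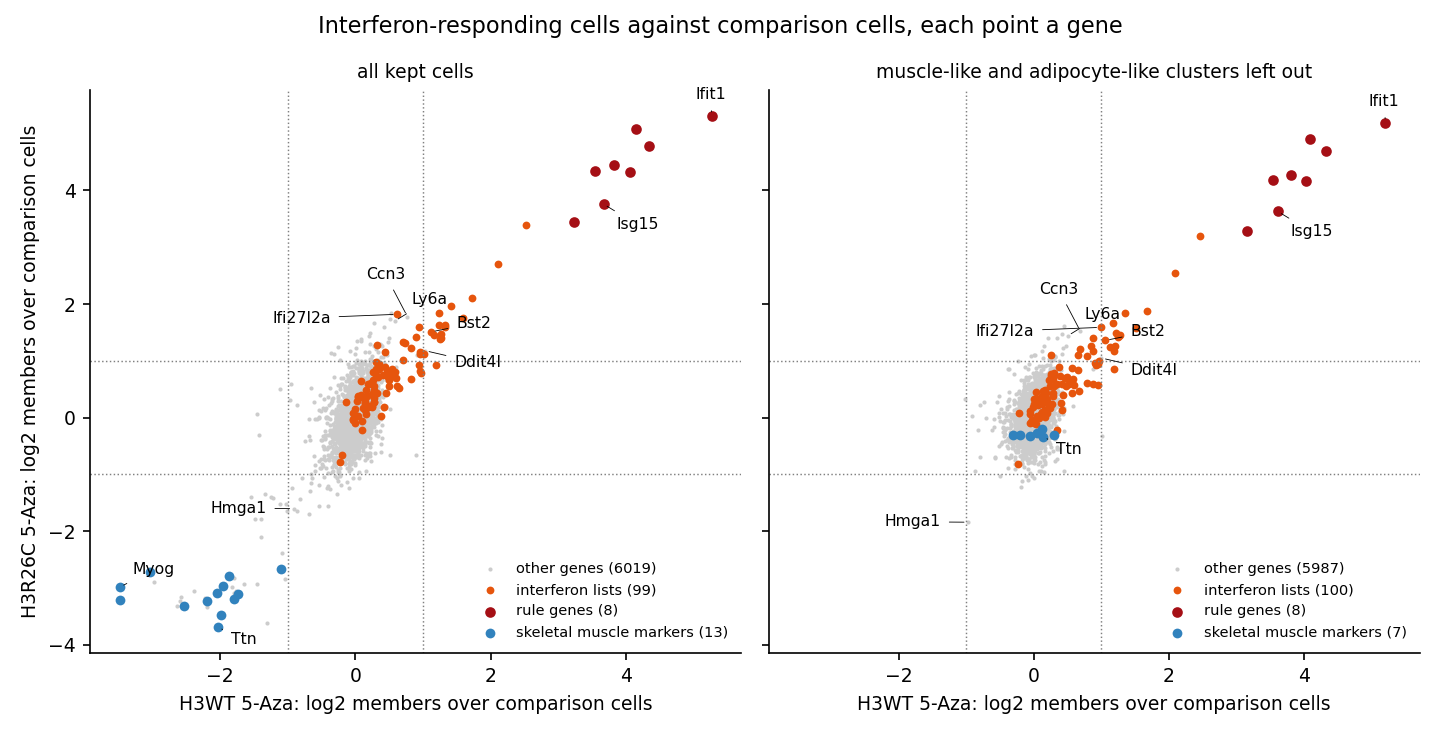
Log2 ratio of responding (members) over comparison cells in H3WT 5-Aza (horizontal) and in H3R26C 5-Aza (vertical), each point a gene, for all kept cells (left) and without the muscle-like and adipocyte-like clusters (right); dotted lines mark 2-fold. Rule genes and interferon-list genes run up the diagonal in both panels, and the skeletal muscle markers at the lower left of the first panel lie near 0 in the second, where 7 of them pass the 20 CPM minimum.

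The transcription factors that carry the interferon signal were higher in responding cells, while the receptor chains differed less. Stat2 was at 73.2 CPM in responding and 28.4 CPM in comparison cells of H3WT 5-Aza (log2 ratio 1.33), and at 71.2 and 22.3 CPM in H3R26C 5-Aza (log2 ratio 1.63). Irf9 was at 51 and 19.8 CPM in H3WT (1.32) and at 54.6 and 17.5 CPM in H3R26C (1.59). For the receptor chains, Ifnar1 had log2 ratios of 0.28 in H3WT and 0.34 in H3R26C and Ifnar2 of 0.16 and 0.49, and the kinase Jak1 had 0.04 and 0.36. Over the list of receptors and signalling genes, 3 of 12 were 2-fold higher in both libraries, with a median log2 ratio of 0.24 in H3WT and 0.36 in H3R26C, beside 0.02 and 0.01 over all genes tested. None of the 21 interferon ligand genes in the files reached 20 CPM, and their summed level was 0 CPM in responding cells of H3WT and 0.0789 CPM in those of H3R26C.

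Among sensors of foreign nucleic acids, Ddx58 and Eif2ak2 were 2-fold higher in responding cells of both libraries. Ddx58, which encodes the RNA helicase RIG-I, was at 78.5 against 32.3 CPM in H3WT and 83.9 against 31.7 CPM in H3R26C (log2 ratios 1.25 and 1.38). Eif2ak2, the kinase PKR that halts translation on double-stranded RNA, was at 109 against 53.2 CPM and 115 against 52 CPM (1.02 and 1.12). Genes further along the sensing route were level, with log2 ratios of 0.00 and -0.09 for the transcription factor Irf3 and -0.04 and -0.03 for its kinase Tbk1. In all, 2 of 5 sensor genes tested were 2-fold higher in both libraries, and the medians over the 5 were 0.82 and 0.68. Without the muscle-like and adipocyte-like clusters Eif2ak2 had 0.97 and 0.99, so that only Ddx58 of the 5 reached 2-fold in both.

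Antiviral effectors and the interferon-induced GTPases included the steepest ratios among the interferon-list genes tested outside the rule. Ifit3b had log2 ratios of 2.52 in H3WT and 3.40 in H3R26C, where reads shared with Ifit3 make the value uncertain. Bst2, the membrane protein tetherin that holds budding virions at the cell surface, was at 361 against 165 CPM in H3WT and at 759 against 266 CPM in H3R26C (1.12 and 1.51). Apol9a, which may share reads with Apol9b, had ratios of 1.59 and 1.76. These were the 3 of 15 effectors that were 2-fold higher in both libraries, with list medians of 0.74 and 1.16, and Bst2 alone of the 3 also reached 20 CPM in the comparison cells of both libraries. The most abundant effector, the endosomal restriction factor Ifitm3, was at 1026 against 614 CPM in H3WT and 1974 against 789 CPM in H3R26C (0.74 and 1.32) and did not reach 2-fold in H3WT. With comparison cells weighted to the clusters of the responding cells and the named clusters left out, Bst2 had 0.99 and 0.95.

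The GTPases, which act on the vacuoles of intracellular parasites, had 3 of 24 genes that reached 20 CPM in both libraries, and all 3 in H3R26C, and Iigp1 and Ifi47 in H3WT, did so through the responding cells alone, so that those ratios had to be above 0. Iigp1 had log2 ratios of 2.11 and 2.70, Irgm1 of 1.41 and 1.96, and Ifi47 of 1.23 and 1.85. Of the remaining interferon-stimulated genes, 3 of 47 were 2-fold higher in both libraries, namely Phf11d (1.72 and 2.11) and the ADP-ribosyltransferase family members Parp9 (1.27 and 1.47) and Parp14 (1.26 and 1.41), and the list medians were 0.27 and 0.49. None of these 3 reached 20 CPM in the comparison cells of both libraries. Among genes of antigen presentation on MHC class I, 1 of 17 was 2-fold higher in both, Psmb8 of the immunoproteasome with 1.17 and 1.45, and the medians were 0.48 and 0.75. With the same weighting by cluster Psmb8 had 1.05 and 0.91, so that none of the 17 reached 2-fold in both, where 0.345% of all genes did. No gene of MHC class II presentation reached 20 CPM.

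The cells that met the criterion with DMSO were examined in the same way. The 113 H3WT and 275 H3R26C DMSO cells were compared with the DMSO cells of the same library that had at most 1 rule gene, and 22 of 6253 genes tested were 2-fold higher in both (0.352%) and 1 lower (0.016%). Outside the rule genes, 14 of 92 interferon-list genes were 2-fold higher in both. Of the 15 genes described above, 14 were tested with DMSO and 12 were 2-fold higher in both DMSO libraries, among them Stat2 with 1.72 in H3WT and 1.39 in H3R26C, Bst2 with 1.25 and 1.12 and Iigp1 with 3.17 and 1.73. Of these 12, 5 also reached 20 CPM in the DMSO cells with at most 1 rule gene in both libraries, Stat2 and Bst2 among them, while the others, such as Iigp1, passed in at least 1 library through the cells that met the criterion and had to be higher there. Outside the interferon lists no gene was 2-fold higher in both DMSO libraries, and 1, Cyp2f2, was lower.

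Some interferon-inducible genes stood out less between responding and comparison cells than between treatments. Comparison cells with 5-Aza were set against all kept cells of the DMSO library of the same genotype, and 105 of 6442 genes were 2-fold higher in both genotypes (1.63%). Of 80 interferon-list genes outside the rule, 5 were among them, namely Ly6e, Ifi27l2a and the MHC class I heavy chains H2-D1, H2-K1 and H2-Q4. Ifi27l2a was an exception in H3R26C, with a log2 ratio of 1.82 between responding and comparison cells and of 1.66 between comparison and DMSO cells. In H3WT its level in comparison cells went from 55.7 to 42.7 CPM without the named clusters, beside 23.3 CPM with DMSO, so that it no longer reached 2-fold. Reads of the H2 genes may be split among their close copies.

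Of these 5 genes, Ly6e, a surface protein that restricts entry of several viruses, rose most between DMSO and comparison cells. It was at 15.7 CPM with DMSO, 80.3 CPM in comparison and 159 CPM in responding cells of H3WT, and at 29.2, 605 and 1037 CPM in H3R26C. Its log2 ratio of comparison over DMSO cells was 2.29 in H3WT and 4.33 in H3R26C, while that of responding over comparison cells was 0.97 and 0.78. H2-K1 was at 61.4, 194 and 292 CPM in H3WT and at 122, 336 and 583 CPM in H3R26C, with the same order of the 3 groups of cells in both genotypes. In contrast, Stat2 was at 26.3 and 28.4 CPM in DMSO and comparison cells of H3WT and at 29.4 and 22.3 CPM in those of H3R26C. The plot of levels by group of cells sets these genes side by side. The comparison cells were chosen for few rule genes and the DMSO cells were not, and the time in culture may differ between them.

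**Figure D3:**
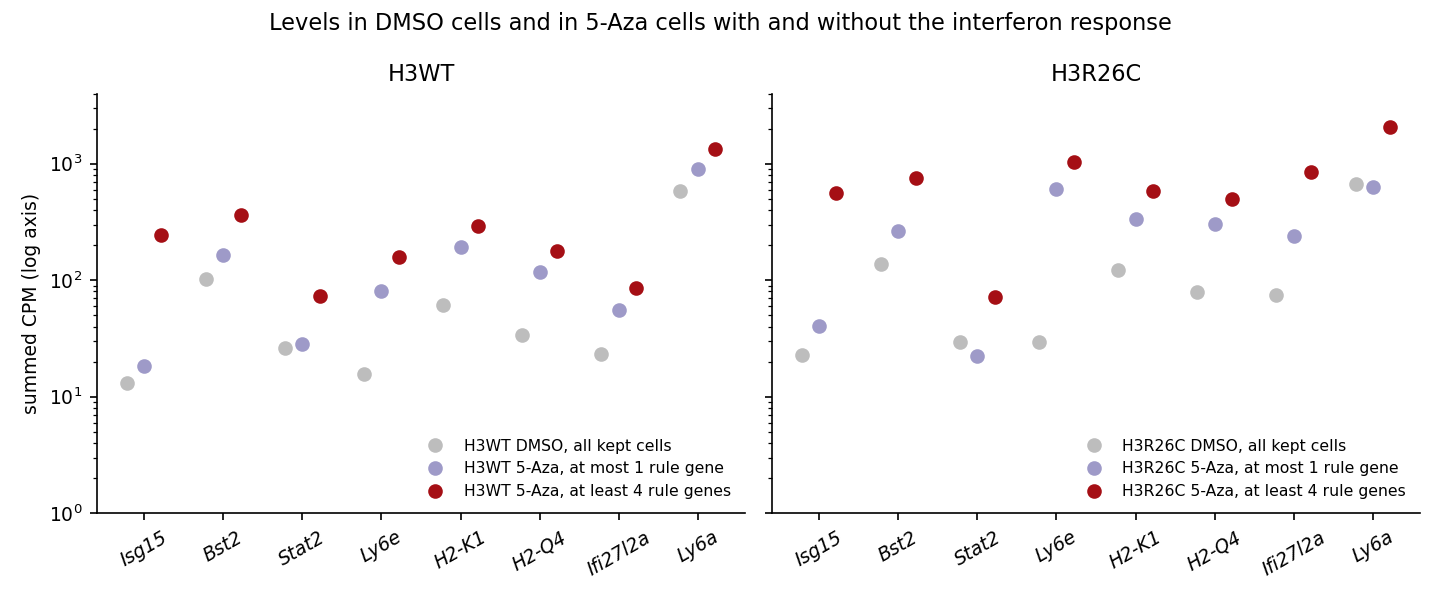
Summed level (CPM, log axis) of 8 genes in all kept DMSO cells (grey), in 5-Aza comparison cells with at most 1 rule gene (violet) and in 5-Aza responding cells with at least 4 (red), for H3WT (left) and H3R26C (right). Ly6e, H2-K1 and H2-Q4 lie higher in comparison than in DMSO cells of both genotypes, while Stat2 lies slightly higher in those of H3WT and lower in those of H3R26C.

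Responding cells were scarce among muscle-like cells. Clusters were made in each 5-Aza library without the genes of the interferon lists, and clusters with at least 3 markers of skeletal muscle or of adipocytes among their genes were named after them. In H3WT 5-Aza, 6 of 198 cells of muscle-like clusters responded (3.03%, interval 1.12% to 6.48%) and 632 of 5751 cells of unnamed clusters (11%, interval 10.2% to 11.8%). In H3R26C 5-Aza, 83 of 380 muscle-like cells responded (21.8%, interval 17.8% to 26.3%) and 3971 of 7239 cells of unnamed clusters (54.9%, interval 53.7% to 56%). After thinning to 5000 UMIs the shares were 1.52% and 2.71% in H3WT, where the intervals overlapped, and 5.79% and 25.7% in H3R26C. Muscle-like cells were the deeper ones, with a median of 14033 UMIs against 13112 in H3WT and of 19694 against 12962 in H3R26C. The adipocyte-like cluster of H3WT held 2 responding cells among 44, and H3R26C had no cluster with that name at the resolution used. At the lower and the higher resolution tried, 15 H3R26C cells formed an adipocyte-like cluster, and 5 of them responded (33.3%).

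The largest falls in responding cells were those of genes of muscle differentiation. Myog, a transcription factor that commits myoblasts to fuse, was at 7.69 CPM in responding and 96 CPM in comparison cells of H3WT (log2 ratio -3.48) and at 36.9 and 299 CPM in H3R26C (-2.98). Mymk, the membrane protein that drives myoblast fusion, had -3.48 and -3.21, and Myod1, the master regulator of the lineage, had -3.03 and -2.72. Others among the 12 largest falls in both libraries were the calcium channel subunit Cacng1, Mybph of the thick filament, the fetal acetylcholine receptor subunit Chrng, the calcium pump Atp2a1, embryonic myosin Myh3, Cox6a2, Myom2, nebulin (Neb) and skeletal actin (Acta1). In H3R26C the steepest was titin (Ttn, -3.69), followed by Myh1 (-3.61) and the creatine kinase Ckm (-3.48).

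All 13 skeletal muscle markers were 2-fold lower in responding cells of both libraries, beside 0.684% of all genes. All 13 reached 20 CPM in the comparison cells of both libraries. Those that did so in the comparison cells alone, such as Myog in H3WT, had to be below 0. The summed level of the 13 markers was 768 against 3241 CPM in H3WT and 934 against 8913 CPM in H3R26C, with DMSO cells at 23 and 16.2 CPM. Muscle-like clusters held 4.69% of comparison and 0.938% of responding cells in H3WT, and 14.2% and 2.05% in H3R26C. Without the named clusters, the median log2 ratio of the 7 markers that still had 20 CPM was 0.05 in H3WT and -0.31 in H3R26C. The markers then still summed to 496 against 507 CPM in H3WT and 431 against 531 CPM in H3R26C. How much of this was free RNA was not tested. The adipocyte markers included 3 of 6 that were 2-fold lower in H3WT (0.761% of all genes), and none of the 2 tested in both libraries was 2-fold lower in both. Among the 3 were the secreted protease Cfd, also known as adipsin (4.9 against 57.6 CPM, -3.31), and Adipoq (6.06 against 38.4 CPM, -2.48). Both reached 20 CPM in H3WT through the comparison cells alone, so they had to be below 0. Without the named clusters their ratios were -0.12 and -0.33 in H3WT. In H3R26C, where no adipocyte-like cluster was there to leave out, Cfd had -1.97 and Adipoq -1.21. Only 1 of 3 adipocyte markers tested there was 2-fold lower, so that Cfd, Adipoq or both were under the 20 CPM minimum.

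Outside the named types, the share of responding cells varied widely among clusters of the H3R26C library. It ran from 29% to 76.8% over its unnamed clusters, and from 13% to 46.7% after thinning. The highest share belonged to cluster 7, led by Enpp2, Cilp, Tmem176a and Tmem176b, where 401 of 522 cells responded, followed by cluster 1, led by Colec10, Pi16 and Sfrp2, with 914 of 1301 cells (70.3%, and 33.1% after thinning). Lowest after thinning were cluster 8, led by Nefl and the replication genes Mcm5, Cdc6 and Mcm3 (13%), and cluster 9, led by the nuclear-retained RNA Neat1 (14.5%), whose median depth was only 6997 UMIs. Cluster 5, led by Tex19.2, Serpina3n and Krt8, had 29.4% and, after thinning, 15.7%. In H3WT the unnamed clusters ran from 2.25% to 16.5%, and after thinning from 0.549% to 4.13%, and the interval of cluster 1, led by Colec10 and Sfrp2, lay apart from those of clusters 3 and 6 alone.

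**Figure D4:**
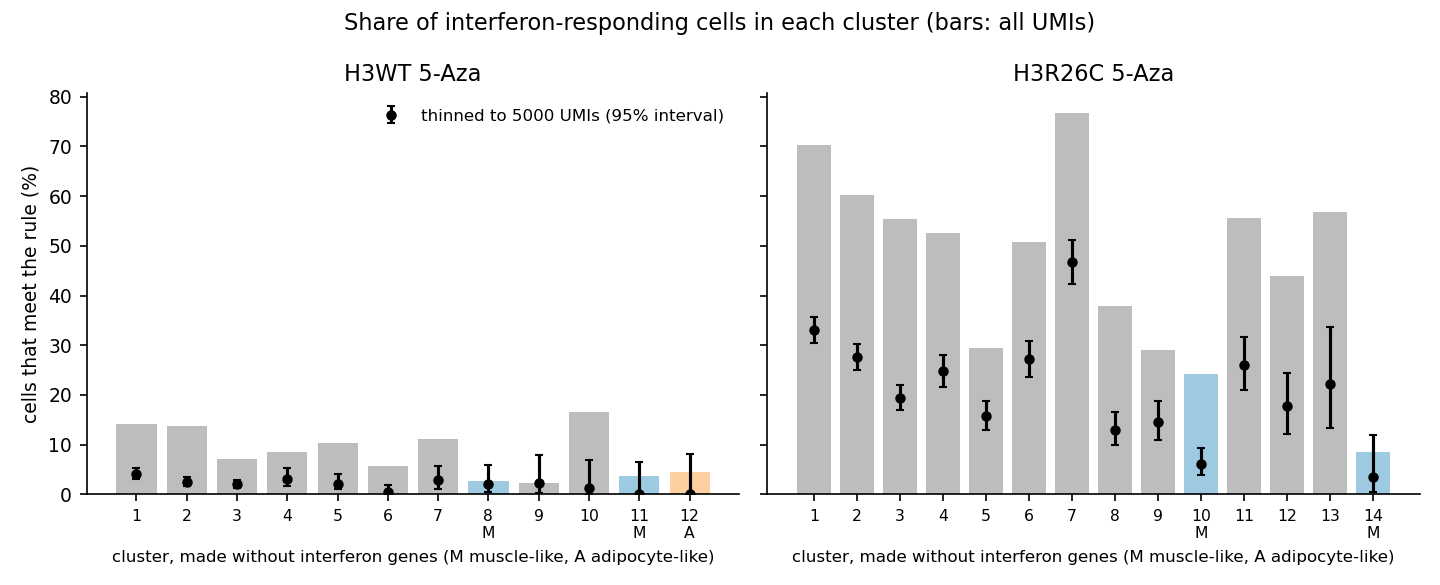
Share of responding cells (vertical, %) in each cluster of H3WT 5-Aza (left) and H3R26C 5-Aza (right), clusters numbered from the largest to the smallest. Bars use all UMIs, points use cells thinned to 5000 UMIs with exact binomial 95% intervals; muscle-like clusters (M) are blue and the adipocyte-like cluster (A) is orange. Every unnamed H3R26C cluster lies at 29% or more by its bar, while no H3WT cluster exceeds 16.5%.

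Outside the interferon lists, Ddit4l alone was 2-fold higher in responding cells of both libraries. This inhibitor of mTOR signalling was at 46.4 against 22.3 CPM in H3WT (log2 ratio 1.03) and at 47.1 against 20.2 CPM in H3R26C (1.18). Without the named clusters it was just under 2-fold in H3WT and at 1.05 in H3R26C. With comparison cells also weighted to the clusters of the responding cells they were 0.92 and 0.65, so that it reached 2-fold in neither library. Crabp1, a carrier of retinoic acid, was at 21.1 against 10.7 CPM and 281 against 129 CPM (0.91 and 1.11). In H3WT it reached 20 CPM through the responding cells alone, with 29.1 and 46.6 CPM in cells with 5 and 6 rule genes, 11.8 CPM in those with 4 and 0 CPM in those with 7 or more. Both genes lead cluster 2 of H3R26C. In the DMSO cells that met the criterion, Ddit4l had log2 ratios of 0.02 and -0.32 and Crabp1 of -0.08 and -0.02.

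Ly6a, which encodes the surface antigen Sca-1 of mesenchymal progenitors, was among the most abundant genes with a higher level in responding cells. It was at 1333 CPM in responding and 892 CPM in comparison cells of H3WT (log2 ratio 0.58), and at 2055 and 633 CPM in H3R26C (1.70), beside 578 and 667 CPM over all DMSO cells. Weighting by cluster without the named clusters gave 0.35 and 0.76. Its relatives Ly6c2 and Ly6c1 had ratios of 0.50 and 0.48 in H3WT and of 1.40 and 1.33 in H3R26C, and weighting by cluster gave 0.31 and 0.30 and 0.45 and 0.26. All lie near Ly6e on chromosome 15 of GRCm38, where Ly6a runs from 74994877 to 74998031, and reads of the Ly6c genes may be split between them. The DMSO cells that met the criterion also had more Ly6a, with log2 ratios of 0.69 in H3WT and 0.48 in H3R26C. Ly6a was in none of the interferon lists used, and whether its rise was part of the interferon response was not tested.

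Several genes of secreted proteins were 2-fold higher in responding cells of H3R26C and fell short of 2-fold in H3WT, a difference between the libraries that was not tested. Ccn3, a matricellular signalling protein, was at 840 against 493 CPM in H3WT (0.77) and 373 against 108 CPM in H3R26C (1.78). Sfrp2, a secreted modulator of Wnt signalling, had 0.51 and 1.74, and the collectin Colec10 had 0.52 and 1.84. In H3R26C Colec10 reached 20 CPM through the responding cells alone, with 30.1 against 7.7 CPM. Colec10 and Sfrp2 lead cluster 1, and weighting by cluster lowered the H3R26C ratios to 0.69 for Ccn3, 0.57 for Sfrp2 and 0.57 for Colec10. Dkk2, an antagonist of Wnt receptors (0.60 and 0.89), the hypoxia-inducible factor subunit Epas1 (0.50 and 0.84), the guanine deaminase Gda (0.53 and 0.80) and Mitd1 (0.61 and 0.82) were higher in both libraries without reaching 2-fold. Mitd1 in both libraries, and Epas1 in H3R26C, reached 20 CPM through the responding cells alone. Of the 12 genes with the largest ratios outside the lists, 8 had a promoter entry, and that of Mitd1 alone held the letters GAAANNGAAA on either strand (12.5%).

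Lower genes outside muscle were found once the named clusters had been left out, none of them 2-fold in both libraries. Hmga1, a chromatin protein of proliferating and undifferentiated cells, had log2 ratios of -0.97 in H3WT and -1.84 in H3R26C. Hmgb3, another high mobility group protein, had -0.50 and -1.03, the opioid precursor Penk -0.79 and -0.70, the cell surface proteoglycan Gpc1 -0.58 and -0.71, and the replication factor Pclaf -0.52 and -0.50. In H3R26C alone the largest falls were those of the neurofilament gene Nefl (-2.70), the predicted gene Gm12415 (-2.45), the uridine phosphorylase Upp1 (-2.13) and the growth factor Areg (-1.94). In H3WT alone they were those of the granin Scg2 (-1.20) and the microfibril protein Mfap4 (-1.01). Nefl, Upp1 and Hmga1, but not Gm12415 or Areg, were among the leading genes of cluster 8 of H3R26C, where 37.8% of cells responded. The share over all unnamed clusters of that library was 54.9%. Scg2 and Mfap4 lead cluster 3 of H3WT, where 7.19% responded, beside 11% over its unnamed clusters. The ratios of this paragraph were not weighted by cluster.

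Replication genes were lower in responding cells of the H3R26C library. All 17 S phase genes tested there had a log2 ratio below 0, with a median of -0.66 and none 2-fold lower. Examples were Mcm3 at 31.3 against 60.6 CPM (-0.93) and Pcna at 50.9 against 70 CPM (-0.45). Here and in the settings below, a gene that reached 20 CPM through the comparison cells alone had to be below 0. All 30 genes of the list, without that minimum, summed to 613 CPM in responding and 934 CPM in comparison cells of H3R26C. In H3WT, 4 of 7 genes tested were above 0 and the median was 0.00. These values depended on the depth and clusters of the comparison cells. Without the named clusters, 6 of 19 were 2-fold lower in H3R26C (median -0.81), beside 0.605% of all genes. With comparison cells also weighted by depth, 17 of 23 were 2-fold lower in H3R26C (median -1.20), beside 1.39% of all genes. All 15 tested in H3WT were then below 0 (median -0.42). Depth weighting had raised the genes tested from 19 to 23 in H3R26C and from 8 to 15 in H3WT. Those added reached 20 CPM through the weighted comparison cells alone, so they had to be below 0. Weighting by cluster gave medians of -0.29 over 16 genes in H3R26C and -0.03 over 8 in H3WT. By phase scores, 7.87% of responding and 15.9% of comparison cells of H3R26C were in S phase, and after thinning 8.34% and 15.4%. In H3WT the shares were 8.75% and 11.8%, and after thinning 18.2% and 20.5% with overlapping intervals. Genes of G2 and mitosis had medians of 0.02 in H3WT and -0.06 in H3R26C. Without the named clusters and with depth weighting, the medians were -0.68 over 28 and -0.42 over 31 genes, and 27 of 28 were lower in both libraries. Depth weighting had raised the genes tested from 17 to 28 in H3WT and from 28 to 31 in H3R26C. Those added again had to be below 0, so these counts and medians were partly set by the 20 CPM minimum. The shares of cells in G2 or mitosis were 13% and 13.8% in H3R26C, and 10.2% and 15.1% after thinning. Uhrf1, which recruits the maintenance DNA methyltransferase to replicating DNA, was at 19.9 against 41.1 CPM in H3R26C (-1.01). It reached 20 CPM there through the comparison cells alone, so that it had to be below 0. In H3WT it was at 16.3 against 13.8 CPM (0.23), under the 20 CPM minimum. Dnmt1 itself had -0.40 and -0.03 in the same order. Without the named clusters and with cluster weighting, none of 12 DNA methylation enzymes tested was 2-fold lower in H3R26C.

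Levels of other interferon genes, and of Ly6a outside the interferon lists, increased with the number of rule genes on both sides of the criterion. In H3R26C 5-Aza without the named clusters, Bst2 went from 227 CPM in cells with 0 rule genes to 621 CPM with 4 and 1278 CPM with 9. Ly6a went from 612 to 1736 and 2504 CPM over the same cells, and Ifi27l2a from 206 to 675 CPM and to its highest level of 1049 CPM in cells with 8. In H3WT 5-Aza, Bst2 went from 158 CPM with 0 to 302 CPM with 4 and 779 CPM with 8 rule genes, and Ly6a from 885 to 1284 and 1857 CPM. Bst2 was higher at each further rule gene in both libraries up to these classes, while Ly6a in H3WT was level between 3 and 5 rule genes, as the plot of levels by number of rule genes shows.

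**Figure D5:**
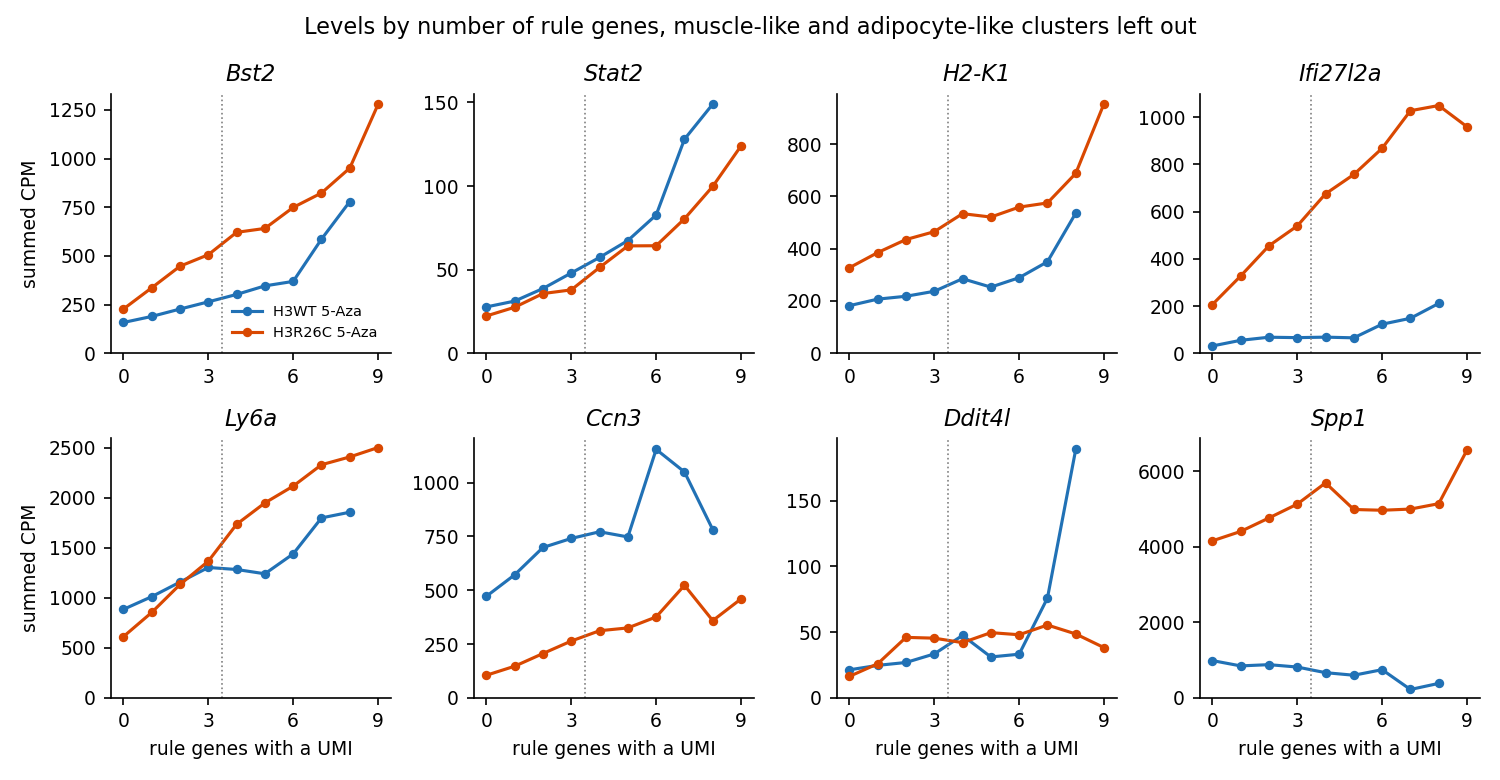
Summed level (CPM, vertical, each panel with its own scale from 0) of 8 genes by the number of rule genes with a UMI (horizontal), without the muscle-like and adipocyte-like clusters, for H3WT 5-Aza (blue) and H3R26C 5-Aza (orange); classes of fewer than 20 cells are not drawn. The dotted line marks the criterion. Bst2, Stat2, H2-K1 and Ly6a are highest in the top class drawn in both libraries, while Spp1 is lower at 8 than at 0 rule genes in H3WT and higher at 9 than at 0 in H3R26C.

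Several of these genes were also higher within single clusters. Unnamed clusters with at least 20 cells of both kinds were compared, 7 in H3WT and 11 in H3R26C, for genes chosen after their values were seen. Bst2 was higher in responding cells in all 7 and all 11, with log2 ratios from 0.53 to 1.54 in H3WT and from 0.31 to 2.13 in H3R26C. Ly6a was higher in 5 of 7 clusters of H3WT and in 11 of 11 of H3R26C, Ccn3 in 7 and 10, and Crabp1 in only 4 and 7. Spp1, which encodes the matrix protein osteopontin, went opposite ways, with lower levels in responding cells in all 7 clusters of H3WT (-0.94 to -0.15) and higher levels in all 11 of H3R26C (0.10 to 1.11). Over all cells it was at 622 against 893 CPM in H3WT and at 5221 against 3960 CPM in H3R26C. Whether this difference between the libraries exceeds the spread between cultures could not be tested.

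No marker of immune or endothelial cells reached 20 CPM in responding or comparison cells. The 9 blood markers summed to 36.6 CPM in responding and 31.4 CPM in comparison cells of H3WT, and to 48.7 and 35.6 CPM in H3R26C. With DMSO they summed to 11.6 CPM in H3WT and 12.6 CPM in H3R26C. Cd68, at 10.1 and 13.9 CPM in responding cells, and Lyz2, at 1.35 and 2.04 CPM, held only part of these sums. The 5 endothelial markers summed to 2.69 and 10.4 CPM in responding cells. Nuclear-retained RNAs, which are enriched in damaged cells and free nuclei, were lower in responding cells, with medians of -0.43 in H3WT and -0.72 in H3R26C and Malat1 at 8774 against 12484 CPM and 8059 against 13318 CPM. Without the named clusters and with comparison cells weighted by depth, the medians were -0.11 and -0.08. All 13 mitochondrial genes were slightly lower, with a median of -0.23 in both libraries, and under the same weighting the medians were -0.06 in H3WT and 0.18 in H3R26C, where 12 of 13 were above 0. The part of cell quality and depth in the ratios above was not tested, other than by weighting comparison cells by depth.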

How the data were processed

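The deposited files hold UMI counts per gene and cell barcode, which the authors made with Cell Ranger 6 (6.1.0 in the file headers) on mm10, with 32285 genes and no normalization; Seurat 4 is also named in the submitters' processing notes. Of 39891 deposited barcodes, 22049 with at least 5000 UMIs, 1500 genes and at most 20% mitochondrial UMIs were kept, the filter of the study's methods, and the kept cells of each library held between 84060490 and 110712425 UMIs. No column was left unmapped. Doublets were not removed.

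Counts were summed over cells and scaled to CPM, so each responding group rests on 10402811 (H3WT) or 63374556 (H3R26C) UMIs and each comparison group on 50304891 or 20121555. Ratios used a pseudocount of 1 CPM. Shares have exact (Clopper-Pearson) binomial intervals. Cells of each 5-Aza library were clustered without the interferon lists (2000 variable genes, 20 principal components, 20 neighbours, Leiden resolution 0.6). A cluster was named where at least 3 markers were at least 2 log2 units higher in it and present in at least 25% of its cells. Weighted comparisons gave comparison cells the make-up of the responding cells by cluster, or by bins of 0.25 log2 units of UMIs.

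The members, the 296 interferon genes in 9 lists and the 27 other lists were chosen with earlier results of these data known. Named genes outside the interferon lists were the 12 largest rises and falls in both libraries, ranked by the smaller ratio, with and without the named clusters, and the 4 largest in each library. In each list the 4 most abundant genes and those past 2-fold could be named, and others were chosen after their values were seen. Gene positions came from GENCODE M21 (GRCm38), matched by identifier. Clustering used scanpy 1.11.5, leidenalg 0.10.2, igraph 0.11.9 and scikit-learn 1.9.0 in Python 3.11.15, and the other steps pandas 2.3.3, numpy 2.4.6, scipy 1.17.1 and matplotlib 3.10.9. One gene counted in the lists is not reported here. The ratios and intervals were tested on simulated counts.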

Additional observations from a re-analysis of the deposited data

Results flagged for a closer look

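The microfibril gene Mfap4 drew attention because its log2 ratio of responding over comparison cells had opposite signs in the libraries, -0.95 in H3WT 5-Aza and 0.60 in H3R26C 5-Aza. The non-coding RNA Snhg15 did the same in the other direction, with 0.89 in H3WT 5-Aza and -0.66 in H3R26C 5-Aza. With the named clusters left out and comparison cells weighted by cluster, Mfap4 had -0.55 and -0.57 and Snhg15 had 1.04 and -0.13. Snhg15 reached 20 CPM in H3WT through the responding cells alone (31.3 against 16.4 CPM). With 1 library per condition, the difference was not tested for either gene.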

How the results depend on the processing

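No paired analysis was possible because there was 1 library per condition and nothing pairs the libraries. Shares of responding cells in H3WT DMSO, H3WT 5-Aza, H3R26C DMSO and H3R26C 5-Aza were 0.566%, 2.65%, 0.783% and 24.7% after thinning, 7.25%, 20.3%, 11% and 66.3% with at least 3 rule genes, and 0.836%, 2.8%, 1.38% and 28.7% with at least 6. H3WT and H3R26C 5-Aza had 12.2% and 59.9% under stricter and 7.92% and 42.6% under looser cell filters. H3WT 5-Aza had 9.14% without cells with at least 3 muscle, adipocyte or blood markers, a setting that left out most cells, since 69.8% of responding and 66.1% of comparison cells had 3 muscle markers (68.8% and 75.2% in H3R26C). H3R26C 5-Aza had 54.9% without the named clusters.

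The single gene outside the interferon lists that was 2-fold higher in both libraries became 0 genes with the criterion after thinning, in G1 cells, with cluster weighting, with means of per-cell CPM, with a pseudocount of 5 CPM, above 50 CPM, and without the named clusters with or without cluster weighting. It became 2 genes without the marker-bearing cells and 5 with at least 6 rule genes against 0. The 42 lower genes became 0 without the marker-bearing cells, with cluster weighting and without the named clusters, also with cluster weighting, 4 without those clusters and with depth weighting, 25 above 50 CPM and 100 above 5 CPM. The 15 higher interferon genes became 37 with the criterion after thinning, 43 with at least 6 rule genes against 0, 34 above 5 CPM and 9 above 50 CPM. The log2 ratio of Ly6a in cells with 4 against 0 rule genes went from 0.65 to 0.87 in H3WT and from 1.84 to 1.46 in H3R26C after thinning.

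Among ratios past 2-fold, the reversed signs were those of muscle and adipocyte genes. Below 2-fold other signs turned too, such as that of Mfap4 in H3R26C, from 0.60 to -0.57 without the named clusters and with cluster weighting. Without the marker-bearing cells, Cacng1 (0.40), Myh3 (0.18) and Myod1 (0.99) reversed in H3WT, and Atp2a1 (0.21), Cfd (0.24), Chrng (0.25), Ckm (0.53), Cox6a2 (0.29), Mymk (0.50), Myod1 (0.35) and Myog (0.08) in H3R26C. Cfd was at 0.45 in H3R26C with at least 6 rule genes against 0. Without the named clusters, Ttn (0.14) reversed in H3WT and Chrng (0.13) in H3R26C. With depth weighting as well, Acta1 (0.09), Ckm (0.06), Myh1 (0.06) and Ttn (0.19) did so in H3WT and Chrng (0.24) and Myog (0.15) in H3R26C. With cluster weighting, Acta1 (0.06), Ckm (0.11) and Ttn (0.22) did so in H3WT and Atp2a1 (0.01), Chrng (0.10) and Myog (0.16) in H3R26C. These settings leave out cells by the same or related genes. Of the other values of named genes, 816 moved beyond their counting interval and 892 did not, and for list medians 166 moved and 989 did not. The cause was not tested. Leaving out the named clusters, and weighting within them, was chosen after seeing the data.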

Other observations

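Among 18 genes of elastic fibres and proteoglycans, 18 had a log2 ratio above 0 in H3R26C (median 0.59) and 8 in H3WT (median -0.05), and 1 was 2-fold higher in H3R26C (1.31% of all genes) and none in H3WT, with the proteoglycan decorin (Dcn) at 1719 against 986 CPM and elastin (Eln) at 68.6 against 40.3 CPM in H3R26C. Complement genes had medians of 0.05 in H3WT and 0.72 in H3R26C and Wnt genes of 0.13 and 0.84, with 2 of 6 Wnt genes 2-fold higher in H3R26C. With comparison cells weighted by cluster and the named clusters left out, the H3R26C medians were -0.01, 0.13 and 0.25. These are over the 18, 11 and 6 genes tested in that library. Of 18 collagen chains, none was 2-fold higher or lower, and 1 was above 0 in H3WT (median -0.10) and 13 in H3R26C (median 0.15).

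Among chemokines and cytokines, Il1rn, the antagonist of the interleukin 1 receptor, was at 72.3 against 22.2 CPM in H3R26C (1.66) and at 192 against 157 CPM in H3WT (0.28), and the chemokine Cxcl12 had 0.99 and 0.09. Il33, an alarmin, had -0.66 in H3R26C and 0.14 in H3WT. Plac8 was at 463 against 190 CPM in H3R26C (1.28) and at 143 against 110 CPM in H3WT (0.38), and Thy1, a surface marker of mesenchymal progenitors, had 1.59 and 0.42. With the same weighting by cluster, the H3R26C ratios were 0.86 for Il1rn, 0.60 for Plac8 and 0.66 for Thy1, all under 2-fold. Rhox5, a germline gene silenced by DNA methylation in most cells, had 0.10 in H3WT and -0.08 in H3R26C, although it was at 0.15 and 0.845 CPM with DMSO and at 30.3 and 49.8 CPM in responding cells. The other germline gene tested in H3R26C, Tex19.2, was at 9.89 against 23.9 CPM (-1.19), and it leads cluster 5 of that library. It reached 20 CPM through the comparison cells alone and had to be below 0. With the same weighting by cluster, 1 germline gene was tested in H3R26C and 0 were 2-fold lower.

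Lists of NF-kB targets (medians -0.03 and -0.06), of CDK inhibitors and p53 targets (0.07 and 0.02), of the unfolded protein and integrated stress response (0.00 and 0.00), of PRC2 subunits (0.00 and -0.15), of DNA methylation enzymes (-0.08 and -0.16) and of ribosomal proteins (-0.02 and -0.17) held no gene that was 2-fold higher or lower in both libraries. The imprinted growth factor Igf2 was lower in both (-1.54 and -1.40), and without the named clusters it had -0.83 and -0.22.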
